A study of Homo sapiens with 19 samples.

Results

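The CLK kinases CLK1, CLK2, CLK3 and CLK4, the kinase SRPK1, and the splicing factors TRA2A and TRA2B were followed through AKAP8 depletion and through epithelial–mesenchymal transition (EMT). They were taken by gene symbol, with every splicing event listed for them, and make up 7 of the 11998 genes and 104 of the 100239 distinct events in the splicing tables. The RNA-seq libraries came from HMLE/Twist-ER cells, Tert-immortalized human mammary epithelial cells that carry the transcription factor Twist fused to the estrogen receptor. Untreated cells (EPI) and cells brought to a mesenchymal morphology with 20 nM tamoxifen (MES) stably expressed, from a lentiviral vector, either a non-specific shRNA (control) or an shRNA against AKAP8 (knockdown, KD). There were 3 EPI control, 3 EPI KD, 3 MES control and 2 MES KD libraries, described by the study as biological replicates. AKAP8 eCLIP, which maps the RNA positions bound by a protein, had 2 AKAP8 and 2 input libraries in each state. The labels do not say which AKAP8 shRNA a library carries, and in MES cells tamoxifen itself and Twist activity cannot be told apart.

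SR proteins, a family of splicing activators rich in arginine and serine, are controlled by phosphorylation. SRPK1 phosphorylates them in the cytoplasm, which sends them into the nucleus, and the CLK kinases phosphorylate them further in nuclear speckles, which releases them for splicing. TRA2A and TRA2B are SR-like proteins that bind GAA-rich exon sequences and favour their inclusion. Several of these genes limit their own output through splicing. Skipping of exon 4 in CLK1 and CLK4 removes the frame of the kinase domain, introns around that exon are retained in the nucleus, and TRA2A and TRA2B carry poison exons with stop codons that send the transcript to decay.

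The regulated exon of the CLK genes is shown first because it is the exon the results on CLK1, CLK2 and CLK4 turn on. It is exon 4 of CLK1, CLK2 and CLK4 and exon 3 or 4 of CLK3, depending on the transcript. Bases that are the same in all 4 genes, with the exons aligned at their 3′ ends without gaps, are in capitals: 40 of 88 positions. The CLK1 and CLK4 exons were identical at 85 of 91 positions (93.4%). None of the 4 lengths is a multiple of 3, so skipping shifts the reading frame. The exons are chr2:201724848-201724938 (CLK1), chr1:155238499-155238586 (CLK2) and chr5:178044345-178044435 (CLK4), all on the minus strand, and chr15:74914461-74914557 on the plus strand (CLK3). All coordinates are GRCh37.
CLK1: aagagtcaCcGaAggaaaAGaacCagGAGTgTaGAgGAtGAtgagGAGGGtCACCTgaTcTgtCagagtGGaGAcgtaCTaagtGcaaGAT
CLK4: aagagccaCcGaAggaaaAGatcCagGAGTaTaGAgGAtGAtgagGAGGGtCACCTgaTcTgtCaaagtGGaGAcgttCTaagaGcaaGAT
CLK2: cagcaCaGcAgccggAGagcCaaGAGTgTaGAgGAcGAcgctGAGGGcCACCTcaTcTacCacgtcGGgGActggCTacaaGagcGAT
CLK3: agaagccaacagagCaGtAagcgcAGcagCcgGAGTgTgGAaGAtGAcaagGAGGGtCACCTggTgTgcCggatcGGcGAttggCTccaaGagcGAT

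The second set is an exon of CLK4 that lies inside the intron between exons 2 and 3. It gave the only change called after AKAP8 knockdown, in EPI cells. This 59-nt exon is chr5:178046839-178046897 on the minus strand, which the annotation places in the transcripts CLK4-203 and CLK4-206, both of the retained intron type. The exon is in capitals, with 10 intron bases on each side. Its length is not a multiple of 3, and 1 of its 3 reading frames holds a stop codon.
CLK4 59-nt exon: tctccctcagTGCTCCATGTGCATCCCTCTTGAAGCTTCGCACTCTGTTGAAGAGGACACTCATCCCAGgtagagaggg

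The third is the poison exon of TRA2A, shown because AGAA, in capitals, is the core of the sequence that TRA2 proteins themselves bind. It is chr7:23561751-23562051 on the minus strand, 301 nt long in the annotated decay transcript TRA2A-211 and in the coding transcript TRA2A-202, and a donor 11 nt further downstream makes it 312 nt. All 3 frames hold a stop codon. AGAA was searched on the transcribed strand and matched 13 times in the 301-nt form. Of 793 cassette exons of all genes within 10% of that length, 0.631% held at least as many, against a median of 2. The 793 include this exon and its 312-nt form, and were matched on length and not on base composition. The 301-nt form has 30.2% GC, so the share is no measure of enrichment beyond base composition. Many matches are not particular to it, as a 214-nt exon of SRPK1 held 14, which 0.146% of 3432 exons of like length reached. The last 150 bases of this form, chr7:23561751-23561900, hold 7 of the matches.
TRA2A exon, last 150 bases: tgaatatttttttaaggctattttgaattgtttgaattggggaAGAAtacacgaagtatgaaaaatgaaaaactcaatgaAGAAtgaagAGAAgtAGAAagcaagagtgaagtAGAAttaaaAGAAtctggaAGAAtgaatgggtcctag

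Skipped exon events held 21198882 to 28261544 junction reads per library. AKAP8 itself was lower in every KD library than in every control of the same state. Its scaled junction reads (junction reads summed over the skipped exon events of a gene, divided by a size factor) were 243.8, 309.9 and 245.0 in EPI controls 1 to 3. They were 120.7, 98.8 and 124.8 in EPI KD. In MES they were 382.3, 195.8 and 247.7 against 108.3 and 121.9. The log2 change was −1.20 ± 0.25 (SE) in EPI with an adjusted p of 0.066 and −1.20 ± 0.28 in MES with an adjusted p of 0.032 (limma). MES controls were lower than EPI controls in 5 of 5 measured epithelial markers of 10 listed (median log2 change −3.58) and higher in 8 of 8 measured mesenchymal markers of 10 listed (median 5.45), all called. The second EPI control and the second EPI KD library stood apart: they gave the highest values of the 11 libraries for inclusion of exon 4 in both CLK1 and CLK4, and within each EPI group the fewest CLK1 and CLK4 reads and the most CLK3 reads.

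The percent spliced in (PSI) of an event is the share of its length-normalised junction reads that support inclusion. An event was tested where its junction reads averaged at least 20 per library and both forms were seen. It was called where FDR was under 0.05 and PSI changed by at least 10 percentage points, the cutoffs the study used. The FDR here came from a quasi-binomial test and that of the study from rMATS, so the calls are not those of the study. PSI was 90 or more in every library for 44 of 74 events tested in EPI knockdown, 37 of 75 in MES knockdown and 46 of 86 in EMT. The same share over all events was not computed. The median size of the PSI change was 0.68, 0.66 and 0.68 points, against 0.78, 1.01 and 0.93 over all events. A change of at least 10 points was measured for 5.41%, 9.33% and 11.6% of the member events, against 2.87%, 4.41% and 6.01% of all events.

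AKAP8 knockdown in EPI cells changed 1 of 74 member events, against 0.0492% of all events called, and 9 had an unadjusted p under 0.05, against 4.76%. In MES cells 0 of 75 were called, against 0.054%, with 5 at an unadjusted p under 0.05, against 3.88%. Limma on logit PSI also called 0 of these, but it called 0 of all 59288 events tested. EMT changed 3 of 86, against 1.59%, and 11 had an unadjusted p under 0.05, against 11.6%. Called events were in CLK4 (EPI knockdown and EMT) and CLK2 (EMT). A test on the logit scale of whether knockdown acted differently in the 2 states called 0 of 56 member events, against 0.00989%. An unadjusted p under 0.05 was reached by 8, against 7.09%. CLK1, CLK3, SRPK1, TRA2A and TRA2B had no called event in 14, 9, 13, 13 and 4 events tested in EPI knockdown. The EPI controls serve both EPI knockdown and EMT, and MES controls 1 and 2 serve both MES knockdown and EMT, so the comparisons are not independent.

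**Figure D1:**
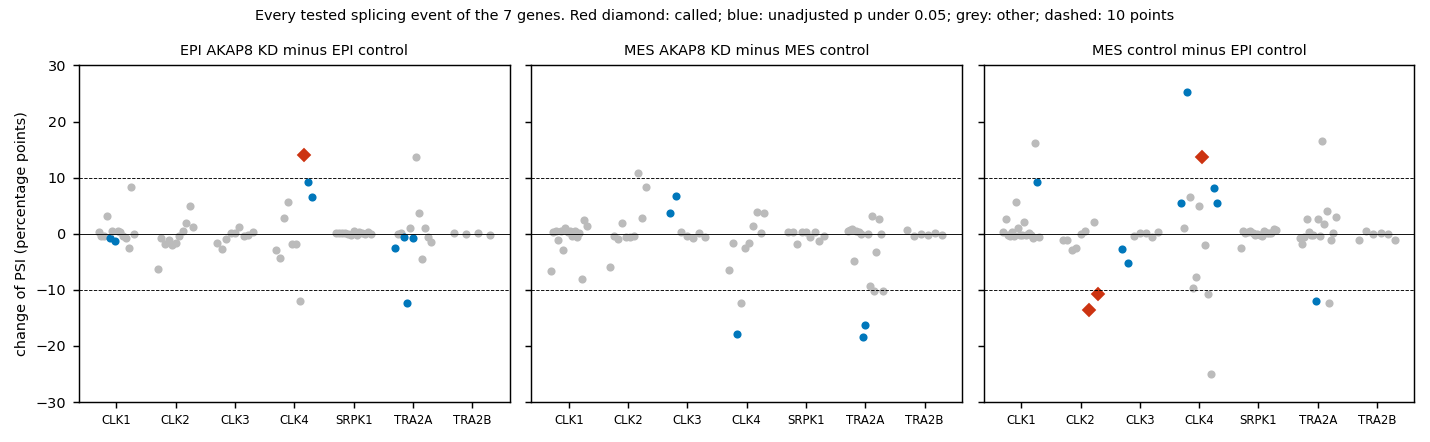
Change of PSI in percentage points (y axis) for every tested event of each gene (x axis) in EPI knockdown, MES knockdown and EMT; red diamonds are called events, blue points have an unadjusted p under 0.05, and dashed lines mark 10 points. The called events are 1 in CLK4 in EPI knockdown, and 1 in CLK4 and 2 in CLK2 in EMT, while SRPK1 and TRA2B stay close to 0.

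The 59-nt exon of CLK4 was rare in EPI controls and more frequent in the other 3 groups. Its PSI was 4.1, 1.6 and 3.9 in EPI controls 1 to 3, from 5, 2 and 6 inclusion reads against 74, 79 and 92 skipping reads. In EPI KD it was 16.2, 7.0 and 28.5, from 19, 6 and 41 inclusion reads. It was 16.9, 16.6 and 16.9 in MES controls and 26.0 and 15.3 in MES KD. Every EPI control lay below every one of the other 8 libraries, and the EPI KD libraries spanned the range of the MES libraries. Group means were 3.2 ± 1.4 (SD, n = 3) in EPI control, 17.2 ± 10.8 (n = 3) in EPI KD, 16.8 ± 0.2 (n = 3) in MES control and 20.6 ± 7.6 (n = 2) in MES KD.

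PSI of this CLK4 exon rose by 14.03 points in EPI knockdown (FDR = 0.013, quasi-binomial test) and by 13.6 points in EMT (FDR = 0.0016). In MES knockdown the difference was 3.88 points (FDR = 0.78), and the knockdown change differed between the states by −10.18 points. The test of that difference is on the logit scale and not in points (unadjusted p = 0.004, FDR = 0.66), and a state-dependent effect was not called. The EPI call rested on few inclusion reads in the controls. It was lost without any 1 of EPI controls 1, 2 and 3 (FDR 0.10, 0.34 and 0.13 at changes of 14.47, 13.21 and 14.40 points) and without EPI KD 3 (8.41 points, FDR = 0.76). It was also lost with limma on logit PSI (adjusted p = 0.76), a test that called 0 of all 65008 events in EPI knockdown. The EPI call was kept with both second EPI libraries left out, at 18.31 points (FDR = 0.019). That setting was added after the values were seen. It drops the EPI KD library with the lowest PSI, so a larger change was bound to follow. The EMT call held without each library in turn (12.78 to 14.04 points, FDR from 0.0032 to 0.04).

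The same stretch also appears as an 836-nt form, which ends at the same donor and starts further upstream. It is annotated in the decay transcripts CLK4-209 and CLK4-211, and stop codons occur in all 3 frames. Its PSI was 5.1, 0.0 and 1.6 in EPI controls, 13.3, 6.5 and 14.5 in EPI KD, 12.1, 8.4 and 10.8 in MES controls and 18.9 and 8.9 in MES KD. Again every EPI control was below all other libraries. The change was 9.19 points in EPI knockdown (FDR = 0.12) and 8.17 points in EMT (FDR = 0.020), under the 10 points needed for a call. It is no independent measurement, because both forms use the same skipping reads in 11 of 11 libraries and share the donor junction. A further exon in that intron, 67 nt long and annotated in CLK4-209, was looked at after its values were seen. Its PSI was 8.2, 0.0 and 3.8 in EPI controls, 15.5, 0.0 and 16.2 in EPI KD and 8.0, 2.4 and 18.1 in MES controls, groups that overlap.

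**Figure D2:**
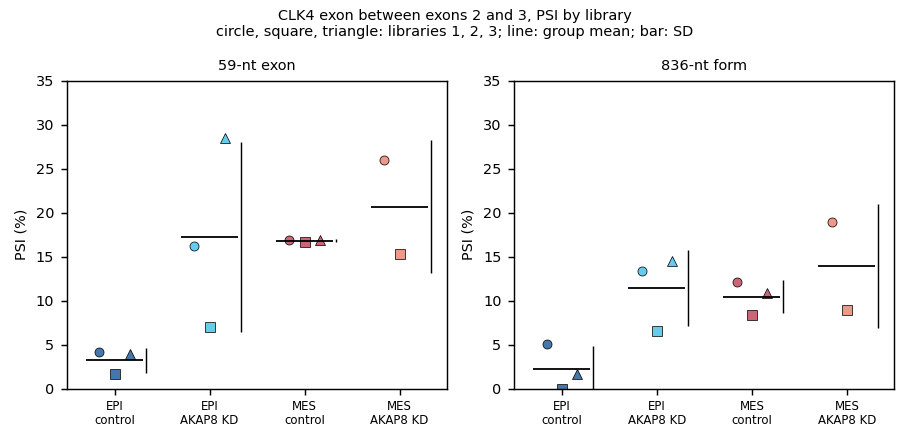
PSI in percent (y axis) of the 59-nt exon and the 836-nt form of CLK4 in each library of the 4 groups (x axis); symbols are libraries, lines group means and bars SD. The 3 EPI controls sit at 1.6 to 4.1 for the 59-nt exon, below the 8 libraries of the other groups at 7.0 to 28.5.

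Inclusion of the regulated CLK2 exon fell in EMT. In the 88-nt form PSI was 96.4, 100 and 94.6 in EPI controls and 73.3, 91.7 and 93.9 in MES controls, and was 99.2, 100 and 95.6 in EPI KD and 86.3 and 95.3 in MES KD. Each MES control lay below each EPI control, with MES control 1 far below the other 2. The fall was −10.68 points (FDR = 0.022). The exon has a tandem acceptor, at which 3 bases are kept or dropped. It is printed with the optional bases in capitals (chr1:155238572-155238601, minus strand), because the 85-nt form is the other called CLK2 event.
CLK2 tandem acceptor: cctgccccccgacagCAGcacagcagccgg

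For the 85-nt form PSI was 94.7, 100 and 93.1 in EPI controls and 65.0, 90.3 and 91.5 in MES controls, a change of −13.65 points (FDR = 0.022). Both forms are set against the same skipping reads, 5, 0 and 5 in EPI controls and 25, 8 and 6 in MES controls, so the 2 calls are 1 observation of skipping. Without MES control 1 the changes were −4.18 points (FDR = 0.70) for the 88-nt form and −5.03 points (FDR = 0.72) for the 85-nt form. Both calls were also lost without EPI control 1 (FDR 0.079 and 0.059) and without EPI control 2 (FDR 0.29 and 0.35), and with limma on logit PSI (adjusted p = 0.17 for each). Knockdown gave 1.28 points in EPI cells and 8.30 points in MES cells for the 88-nt form (FDR 0.71 and 0.76). The choice between the acceptors themselves, looked at after its values were seen, put the 88-nt form at 62.9 to 84.5% over the 11 libraries, and changed by 4.96, 2.89 and 2.11 points in EPI knockdown, MES knockdown and EMT (unadjusted p 0.35, 0.60 and 0.77).

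Exon 4 of CLK1, whose skipping leaves a form without kinase activity, was the most variable cassette exon of that gene. Its PSI was 46.6, 84.5 and 59.3 in EPI controls, 64.0, 94.0 and 57.6 in EPI KD, 80.3, 76.6 and 61.3 in MES controls and 83.7 and 78.1 in MES KD. The second EPI control and second EPI KD were highest, and all 4 groups overlapped. The changes were 8.41 points in EPI knockdown (FDR = 0.71), 2.40 in MES knockdown (FDR = 0.85) and 9.31 in EMT (unadjusted p = 0.018, FDR = 0.30). Without MES control 3 the EMT change was called, which took the member events called in EMT from 3 to 4.

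The matching exon of CLK4 gave PSI of 67.7, 93.0 and 82.5 in EPI controls, 62.6, 100 and 75.3 in EPI KD, 78.9, 79.3 and 55.7 in MES controls and 80.1 and 73.2 in MES KD. As in CLK1, the second EPI libraries were highest and the groups overlapped. The changes were −1.75, −2.46 and −9.75 points (FDR 0.87, 0.92 and 0.59 in EPI knockdown, MES knockdown and EMT). In CLK3 the exon was nearly always included, at 96.8, 100 and 98.8 in EPI controls, 93.8, 99.7 and 97.3 in EPI KD, 96.3, 94.6 and 96.4 in MES controls and 98.1 and 100 in MES KD. Its changes were −1.59, 3.64 and −2.78 points (FDR 0.71, 0.76 and 0.35).

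**Figure D3:**
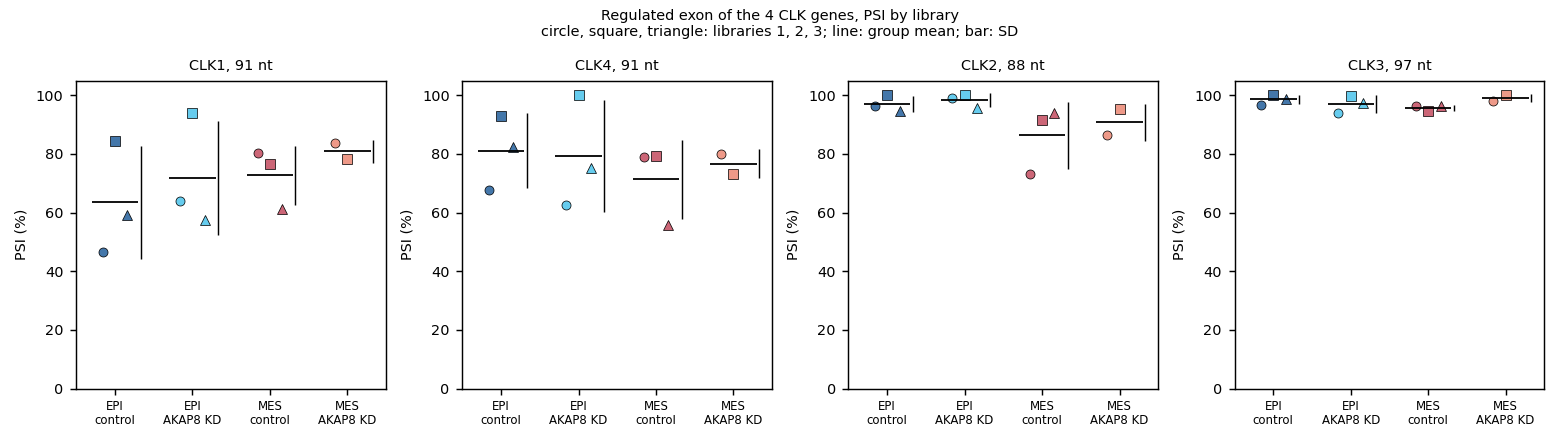
PSI in percent (y axis, from 0) of the regulated exon of CLK1, CLK4, CLK2 and CLK3 in each library of the 4 groups (x axis); symbols are libraries, lines group means and bars SD. CLK1 ranges from 46.6 to 94.0 and CLK4 from 55.7 to 100 with overlapping groups, CLK2 has 1 MES control at 73.3, and CLK3 stays at 93.8 or more.

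Among retained introns, that between exons 4 and 5 of CLK4 showed the largest difference between states. In this event the spliced form joins exon 4, together with the intron before it, to exon 5. Its PSI, here the share with the intron retained, was 27.3, 17.2 and 30.4 in EPI controls, 31.9, 14.0 and 37.6 in EPI KD, 38.0, 57.6 and 55.0 in MES controls and 23.1 and 36.8 in MES KD. The 3 MES controls were above the 3 EPI controls and both MES KD libraries. The change was 25.23 points in EMT (unadjusted p = 0.0028, FDR = 0.17) and −17.88 points in MES knockdown (unadjusted p = 0.019, FDR = 0.51), neither of them called. The EMT non-call depends on the fit. A replicate block by place in the list called it, though EPI and MES controls at the same place correlated only weakly. The intron between exons 3 and 4 of CLK4 was retained at 13.5 to 55.0%, with EPI controls alone at 13.5, 32.8 and 53.1.

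For CLK1, retention of both introns around exon 4 was measured against the junction that skips the exon, the same reads in 11 of 11 libraries as for exon 4 itself. PSI was 29.2, 81.6 and 56.8 in EPI controls, 35.4, 88.1 and 36.5 in EPI KD, 80.3, 75.2 and 60.9 in MES controls and 75.7 and 63.6 in MES KD. The changes were −2.54, −8.07 and 16.23 points (FDR 1.0, 0.83 and 0.53), and the groups overlapped. With the replicate block by place in the list, the EMT change was called here too. Another CLK1 intron was retained at 2.3 to 8.3% and the intron after the regulated exon of CLK3 at 3.4 to 6.6%, with no change above 1.04 points in EPI knockdown, MES knockdown or EMT.

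In TRA2A, the intron after the poison exon, with the 312-nt form as the spliced one, was retained at 85.0, 84.1 and 85.9 in EPI controls and 67.9, 66.4 and 83.6 in EPI KD. In MES it was 72.6, 70.9 and 75.6 in controls and 50.6 and 56.1 in KD. Every KD library lay below every control of its state, and MES controls lay below EPI controls. The changes were −12.40 points in EPI knockdown (unadjusted p = 0.035, FDR = 1.0), −18.37 in MES knockdown (unadjusted p = 0.0084, FDR = 0.36) and −12.00 in EMT (unadjusted p = 0.013, FDR = 0.33), and none was called. The reads were few on the spliced side, with 13 to 23 in EPI controls and 20 to 56 in EPI KD. They are reads of the junction that leaves the poison exon. Transcripts that skip that exon are not counted, here or for the shorter form, so the PSI is no share of all TRA2A RNA.

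With the 301-nt form as the spliced one, the same intron was retained at 90.7, 89.9 and 86.6 in EPI controls, 89.8, 91.9 and 88.7 in EPI KD, 89.2, 96.9 and 89.0 in MES controls and 69.7 and 83.8 in MES KD. Both MES KD libraries stood below the MES controls, by −16.28 points (unadjusted p = 0.012, FDR = 0.44), while EPI knockdown gave 1.11 points (FDR = 1.0). The 312-nt donor took 69.4, 67.5 and 62.5% of donor use in EPI controls and 83.7, 86.9 and 69.7% in EPI KD, a difference of 13.68 points (unadjusted p = 0.10). This event was looked at after its values were seen.

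**Figure D4:**
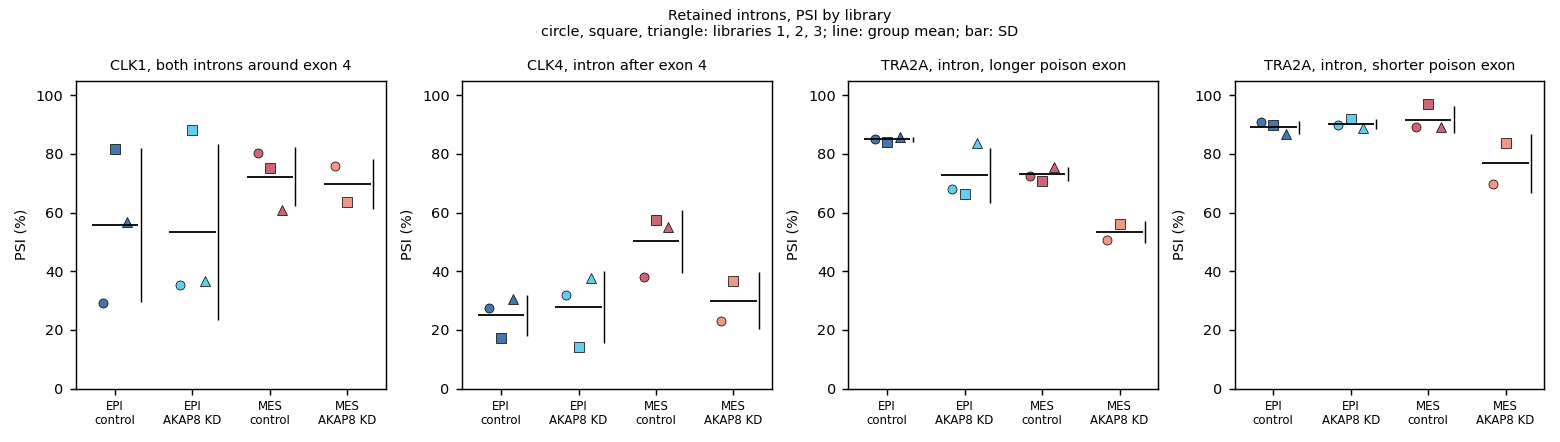
PSI in percent (y axis, from 0) for CLK1, CLK4 and both donor forms of TRA2A in each library of the 4 groups (x axis). PSI is the retained share of the junction reads of each event, not of all RNA of the gene. Symbols are libraries, lines group means and bars SD. CLK4 retention is 38.0 to 57.6 in MES controls against 17.2 to 30.4 in EPI controls, and TRA2A retention at the 312-nt form is lower in KD than in control libraries of each state.

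Inclusion of the TRA2A poison exon itself, in the 312-nt form and printed above in part, did not pass the test in any comparison. PSI was 11.1, 7.9 and 14.9 in EPI controls, 19.7, 9.7 and 15.5 in EPI KD, 14.8, 7.3 and 17.3 in MES controls and 15.7 and 12.7 in MES KD. All groups overlapped, though each EPI KD library was higher than the control listed at its place, in 3 of 3 pairs (unadjusted p = 0.12 and FDR = 1.0 with these pairs fitted as a replicate block). The changes were 3.70, 3.13 and 1.82 points (FDR 0.71, 0.76 and 0.73). A 90-nt exon near the start of TRA2A ranged from 10.2 to 38.9% without a called change. For TRA2B, the best covered exons stayed near full inclusion in all libraries, at 96.7 to 99.3% for a 134-nt exon and 98.2 to 99.7% for a 60-nt exon. The annotated TRA2B poison exon of 276 nt (chr3:185649365-185649640) was the variable segment of 0 events in the tables, so its inclusion was not measured here. In SRPK1 a 96-nt exon was included at 1.4 to 3.2% and a 214-nt exon at 97.6 to 99.4%, with changes of at most 0.68 points.

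Gene values were approximated from the junction reads, and in bulk samples fewer cells of a type and less RNA per cell cannot be told apart. Values depend on how many junctions a gene has, so levels are compared between groups and not between genes. A junction shared by several events is counted once for each, and inclusion covers more junctions than skipping. A change in splicing can therefore also move a value. A gene was called where the log2 change exceeded 1 in size with an adjusted p under 0.05 (limma on log2 of the value plus 1). None of the 7 genes was called in EPI knockdown (0.189% of all genes called), MES knockdown (2.27%) or EMT (12.5%). With the replicate block, EPI knockdown called 72 genes in place of 17, and again none of the members. At an unadjusted p under 0.05 there were 0, 2 and 3 members, against 9.86%, 21.8% and 36.3% of all genes. The difference of the knockdown effect between states was called for 0 members (0.0111% of all genes), and 0 had an unadjusted p under 0.05 (6.55% of all genes).

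CLK3 and SRPK1 were lower in MES than in EPI controls at an adjusted p under 0.05, which 23.9% of all genes reached in EMT, without passing the fold cutoff. CLK3 values were 2419.5, 2944.7 and 2291.2 in EPI controls and 1570.2, 1494.3 and 1223.7 in MES controls, which did not overlap. The log2 change was −0.84 ± 0.22 (SE, adjusted p = 0.014). CLK3 in EPI KD was 1612.1, 3166.8 and 1946.6, overlapping its controls, and in MES KD it was 1252.6 and 1223.0. SRPK1 values were 3985.4, 3656.1 and 4282.6 in EPI controls and 2628.7, 2954.9 and 3041.8 in MES controls, again without overlap, at a log2 change of −0.47 ± 0.15 (adjusted p = 0.043). For SRPK1 the adjusted p was above 0.05 without any 1 of the 6 control libraries (0.06 to 0.15), without EPI KD 1 (0.051), and from the single event with most reads (0.053). For CLK3 it was 0.058 without EPI control 2 and 0.052 without MES control 3.

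In MES KD, SRPK1 was at 1830.4 and 2255.1, below all MES controls, at a log2 change of −0.50 ± 0.17 (unadjusted p = 0.013, adjusted p = 0.11). CLK4 was also below its controls in MES KD, at 386.2 and 389.7 against 555.7, 602.8 and 817.9, with a log2 change of −0.74 ± 0.29 (unadjusted p = 0.025, adjusted p = 0.16). In EPI cells CLK4 was 485.6, 402.4 and 677.2 in controls and 460.7, 305.4 and 615.9 in KD, which overlapped. Each EPI KD library was below the control listed at its place, and with these pairs as a block the unadjusted p was 0.16 (adjusted p = 0.45). The difference between the states was −0.54 ± 0.39 for CLK4 and −0.32 ± 0.23 for SRPK1 (adjusted p = 0.83 for both). Leaving out both second EPI libraries was a setting added after the values were seen. It put the adjusted p in MES knockdown at 0.033 for CLK4 and 0.023 for SRPK1 at the same changes, still under the fold cutoff. As each library was left out, the adjusted p ranged from 0.052 to 0.41 for CLK4 and from 0.031 to 0.48 for SRPK1. Without MES KD 1 the log2 change of SRPK1 was −0.35 (unadjusted p = 0.13), and without MES control 3 that of CLK4 was −0.58 (unadjusted p = 0.093).

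TRA2B was at 3490.3, 3354.0 and 3266.2 in EPI controls and 4476.3, 4442.1 and 3990.4 in MES controls, a log2 change of 0.35 ± 0.15 (unadjusted p = 0.04, adjusted p = 0.12). It was 3893.8, 2563.0 and 3311.6 in EPI KD and 4023.1 and 3772.9 in MES KD. TRA2A ranged from 1953.2 to 3405.3 in EPI KD, around its EPI controls at 2503.0 to 2734.4, and its log2 changes were 0.04, −0.10 and 0.20 (adjusted p 0.99, 0.82 and 0.47 in EPI knockdown, MES knockdown and EMT). CLK1 was 1406.6, 1213.1 and 2602.4 in EPI controls, with 1 library far above the rest, and 1134.8 to 1648.0 in all other groups. In EPI knockdown its log2 change was −0.29 (unadjusted p = 0.25), and the replicate block gave an unadjusted p of 0.053 (adjusted p = 0.26), with CLK1 lower in KD in 3 of 3 pairs. CLK2 had log2 changes of 0.21, −0.25 and −0.15 (adjusted p 0.82, 0.49 and 0.59).

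**Figure D5:**
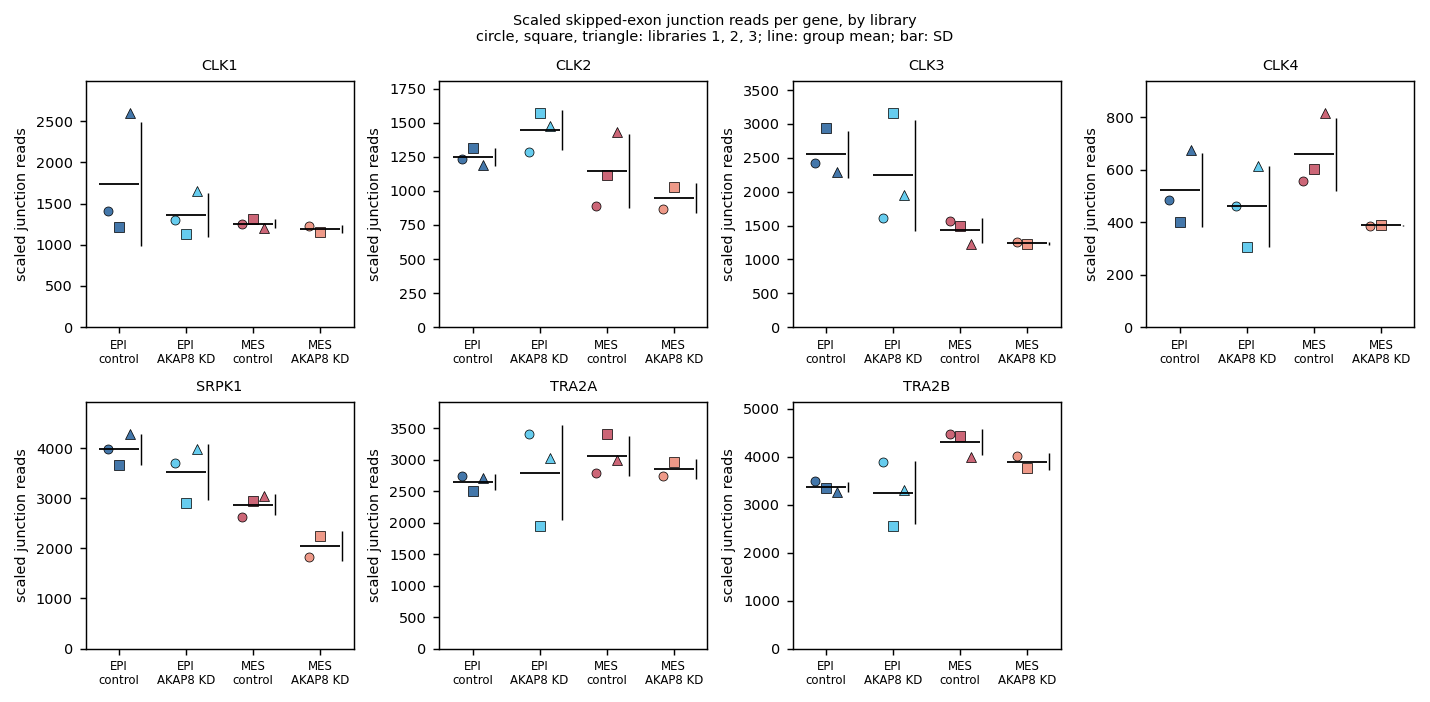
Scaled skipped-exon junction reads (y axis, linear from 0, a separate scale for each gene) of the 7 genes in each library of the 4 groups (x axis); symbols are libraries, lines group means and bars SD. CLK3 and SRPK1 are lower in the 3 MES controls than in the 3 EPI controls, and CLK4 and SRPK1 are lower in MES KD than in MES control.

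In 2 lists of genes from the same pathway no gene was called. Of all genes, 0.189% were called in EPI knockdown, 2.27% in MES knockdown and 12.5% in EMT. Of 18 kinases, phosphatase subunits and import factors of SR protein phosphorylation, 14 were measured and 0 called in any comparison, by limma. Their median log2 changes were −0.02 in EPI knockdown, 0.10 in MES knockdown and 0.11 in EMT, against −0.01, −0.01 and 0.01 over all genes. Of 19 SR and SR-like proteins, 13 were measured and 0 called, with medians of −0.03, −0.09 and 0.06. Named after their values were seen, 3 of these genes passed the adjusted p alone in EMT, which 23.9% of all genes reached. PPP1R8, a nuclear inhibitor of protein phosphatase 1, was 2052.4 to 2092.7 in EPI controls and 2743.5 to 3321.7 in MES controls (log2 change 0.56 ± 0.15, adjusted p = 0.015). SRSF4, an SR protein, was 2341.9 to 3128.7 against 1621.2 to 1841.3 (−0.69 ± 0.17, adjusted p = 0.011). THRAP3, an SR-like protein, was 3172.6 to 4020.1 against 4505.3 to 5421.2 (0.44 ± 0.14, adjusted p = 0.036).

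Across the 11 libraries, the gene with the pattern most like that of each member, by Pearson r of log2 values over 9013 others, was SOS2 for CLK1 (r = 0.867), EEF2K for CLK2 (0.957), CYSTM1 for CLK3 (0.986), IFT80 for CLK4 (0.957), MLLT4 for SRPK1 (0.99), SRSF10 for TRA2A (0.935) and PLAA for TRA2B (0.955). Among the members, TRA2A and TRA2B were most alike (r = 0.769). The points are the same libraries in 4 groups, and each r is the highest of many, so they are a description only.

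No deposited AKAP8 eCLIP peak lay over any of the 7 genes. The deposited lists hold 24637 peaks in EPI and 30390 in MES, of which 21665 and 26228 had a −log10 p of at least 3 and a log2 of AKAP8 over input of at least 2. None overlapped a member on its strand in either state, and none did with all deposited peaks, on either strand, or within 1000 bases of a variable exon. The nearest peak on the same strand was 36.0 kb away for TRA2A in both states, and 17078 kb in EPI for CLK1. A peak was found over 1709 of 8203 tested and annotated genes in EPI (20.8%) and 1031 in MES (12.6%). Among the 4451 genes with at least as many scaled junction reads as the lowest member the shares were 22.7% and 13.4%. The lists were merged over both replicates of a state by the authors, so states were not compared against replicate spread.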

How the data were processed

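Per the labels and the study's methods, the authors aligned paired-end, stranded polyA RNA-seq reads to GRCh37 with STAR and counted junction reads per annotated event with rMATS. The 15 deposited tables hold whole junction read counts of 5 event types for 3 comparisons. PSI was recomputed from these counts and the effective lengths of the forms, and 30 columns of PSI by the authors were not used. eCLIP peaks were deposited as 1 list per state, merged by the authors over replicates, with −log10 p values and log2 of AKAP8 over size-matched input. A deposited gene table holds the authors' own fold changes and q-values with no gene names and was not used.

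Inclusion against skipping reads were fitted with a quasi-binomial model over all events of a type, the dispersion moderated with limma (version 3.58.1, R 4.3.3), and adjusted by Benjamini-Hochberg within type. Knockdown in MES used MES controls 1 and 2, which its tables hold. Gene values are reads of the skipped exon events found in all 3 comparisons, summed per gene, divided by median-of-ratios size factors, kept at 10 or more in 2 libraries (9014 genes) and tested with limma over all 11 libraries. Junction reads carry no molecular identifiers, so read numbers give counting error only. Sequences and annotation come from GRCh37 with Gencode genes lifted to it, a later release than the authors used. Python 3.11.15, numpy 2.4.6 and pandas 2.3.3 were used. Both fits were also run on simulated data, with no outcome given here. The changed events simulated for splicing had intermediate inclusion, unlike the CLK4 and CLK2 exons called here.

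Named events are those called, up to 2 skipped exon and 2 retained intron events per gene with most reads of the rarer form, and up to 3 per comparison with the largest change at an unadjusted p under 0.05. Named genes outside the members are those called in 2 fixed lists (none), the most similar gene of each member and any said to be chosen after its values were seen. Members and lists were chosen with earlier results of these data known. Replicates were taken in the order the tables list them. Deviations of an EPI control from the mean of its group correlated with those of the EPI KD library listed at that place (r = 0.282, 0.580 and 0.493), which is the sole evidence of pairing in EPI. Alternatives covered other filters, scalings, pseudocounts, tests, a replicate block and leaving out each library.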

Additional observations from a re-analysis of the deposited data

How the results depend on the processing

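Leaving out each library in turn moved the member events called in EPI knockdown between 0 and 2 and in EMT between 1 and 4. With limma on logit PSI the counts were 0 in EPI knockdown and 1 in EMT. With the replicate block by place in the list, EMT gave 5, adding retained introns of CLK1 and CLK4 at FDR of 0.045 and 0.0014, and the block changed no call in EPI knockdown. The block puts CLK4 and SRPK1 in MES knockdown at adjusted p of 0.038 and 0.035. Correlations at the same place were lower than in EPI for MES control with MES KD (r = 0.173 and 0.022). The same held for EPI with MES controls (r = 0.079, 0.184 and 0.265). Each EPI control still correlated most with the MES control at its place, though EPI control 2 did so barely (0.184 against 0.178). These weak values do not settle whether the libraries are paired. With the adjusted p alone, 2 members were called in EMT. In MES knockdown the uncalled changes of the CLK2 exon ranged from −1.82 to 23.39 points in the 85-nt form and from −0.87 to 17.47 in the 88-nt form, and that of the 59-nt CLK4 exon from −1.5 to 9.27, as each library was left out. Counts over all events and genes moved by more than 1.5 times as well. For events, EPI knockdown gave 32, and 49 with a dispersion trend on all reads, 0 with limma on logit PSI and 18 to 116 as libraries were left out. MES knockdown gave 32, and 59, 0 and 6 to 241 under the same alternatives and 53 with the block. EMT gave 1075, and 472 with limma on logit PSI and 684 to 1278 as libraries were left out, and the interaction gave 4, and 21 without MES control 3 (6 with the block, also without it). For genes, EPI knockdown gave 17, and 72 with the block and 3 to 38 as libraries were left out, MES knockdown 205, and 376 and 63 to 335, and 352 without both second EPI libraries, and the interaction 1, and 15 and 0 to 14, and 2 from the single event with most reads. Where 1 MES KD library was left out, the lone library was assumed to vary like the others. The cause of these moves was not tested. Of the member counts under the alternatives tried, 112 stayed within 1.5 times the reported count and 12 moved further. A count of 0 that stayed at 0 is among the 112, so the tally is no measure of stability. A peak overlap of 50% between states was not run, since no member has a peak. The 59-nt CLK4 exon had 2 to 6 inclusion reads in EPI controls.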
